A study of Homo sapiens with 8 samples.

Results

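The response of SK-MES-1 cells, a human lung squamous cell carcinoma line, to transfection with either strand of the miR-144 duplex was read on 2 of the 8 Agilent 2-colour arrays of the series. The 2 arrays were chosen by their labels, 1 for cells that received miR-144-5p and 1 for cells that received miR-144-3p. On both arrays, the Cy3 channel held RNA of mock SK-MES-1 cells, to which nothing was transfected, and the Cy5 channel held RNA of the transfectants. The dyes were not swapped. The values described are the log2 ratio of transfected over mock on each array and the mean of both. A mean can come from 1 strand alone, so what the 2 strands had in common is read from the ratios on each array.

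The other 6 arrays have the same layout, with mock cells in Cy3 and transfectants in Cy5, and served as background. They held PC3 prostate cancer cells with si-PIR-2 or si-PIR-3, which are siRNAs against the pirin gene, miR-204-5p in SW1990, a pancreatic line, and in MDA-MB-231, a breast line, and miR-130-5p or miR-130-3p in PANC1, a second pancreatic line. No array of a control RNA was among the 8, so the effect of a transfected strand and that of transfection itself cannot be told apart against mock. Each strand had 1 array. Where the mean ratio of both SK-MES-1 arrays is tested alone, the spread therefore rests on 1 array of each strand, and what differed between the strands counts as spread. The SE and p-values given for differences from the other 6 arrays also draw on the spread among those 6 arrays, which differ in cell line and transfected RNA. The labels do not say whether both SK-MES-1 arrays drew on 1 mock extract.

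A microRNA is cut from a hairpin whose 2 arms can both be loaded into Argonaute, and the loaded strand lowers mRNAs that pair with it, mostly through its seed, the bases near its 5′ end. miR-144 is best known from red cell precursors, and its strands are studied as antitumor microRNAs in several carcinomas. Short double-stranded RNA can also be sensed by innate immune receptors, after which interferons and NF-kB switch on antiviral and inflammatory genes.

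The strands are shown because a response common to both is one between unlike seeds. Both are printed from 5′ to 3′ as RefSeq gives them on GRCh38.p14, with the seed, bases 2 to 8, in capitals.
hsa-miR-144-5p: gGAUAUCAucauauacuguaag
hsa-miR-144-3p: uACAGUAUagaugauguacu
miR-144-5p has 22 bases and lies at chr17:28861583-28861604, and miR-144-3p has 20 bases and lies at chr17:28861548-28861567, both on the minus strand. The 2 seeds hold the same base at 1 position only, and 0 of the other mature human microRNAs among the 2370 in the RefSeq table have either seed.

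The arrays hold 43317 gene names. A gene was tested where a probe was well above background, as marked by the scanner software, in at least 1 channel on both SK-MES-1 arrays, which held for 23193 genes, and both channels passed on both arrays for 19716 of them. On the SK-MES-1 arrays, 45.4% and 46.4% of probes were above background in the mock channel and 53.8% and 54.6% in the transfected channel. The other 6 arrays had 41.4% to 45.1% in the mock channel and 49.8% to 53.7% in the transfected channel, so the Cy5 channel saw more probes on all 8 arrays. Accordingly, 2173 genes were above background only in the transfected channel of the SK-MES-1 arrays and 7 only in the mock channel. No spot was saturated. Intensities are given as scanned, before background and dye correction, while the ratios were taken after both corrections. The transfected and mock intensities of a gene therefore do not divide to its ratio. In mock cells, 11 of 15 squamous markers were above background on both arrays, whereas KRT5, KRT6A, DSG3 and DSC3 were not. TP63, KRT17, KRT14 and SOX2 were dim, at intensities of 33.1 to 49.1, and S100A2 was at 5120 to 5650. Of 5 simple epithelial markers, 4 were above background on both arrays, with KRT18 at 3670 to 3730 and KRT19 at 12100 to 12600, and CDH1 was not. None of 4 glandular lung markers, NKX2-1 included, was above background in mock cells, and of 5 leukocyte markers, of which 1 had no probe, PTPRC and CD14 were at intensities of 30.3 to 30.6 and 86.6 to 92.3. Of 8 fibroblast and mesenchymal markers, 5 were above background in mock cells on both arrays, with VIM at 18500 to 18900, whereas COL1A2, COL3A1 and DCN were not.

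Over all genes tested, the mean log2 ratio was not distinguished from 0 after adjustment. limma called 0 genes higher and 0 genes lower at an adjusted p under 0.05 with 2 arrays, the smallest adjusted p being 0.121, while 3255 genes (14%) were higher and 2637 (11.4%) lower at an unadjusted p under 0.05. This outcome depended on the treatment of dim probes. With both channels required above background, limma called 722 genes higher and 960 lower, and with normexp background correction and loess it called 3140 higher and 2373 lower. The mock channel enters this test only as the denominator of each ratio, so the spread of the mock cells is not estimated on its own. Genes are therefore given below by their ratios on each array, and by the counts past 1 on the log2 scale, which is a doubling.

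The log2 ratio was above 1 on both SK-MES-1 arrays for 243 genes (1.05% of those tested) and below -1 on both for 107 genes (0.461%). The 243 and the 107 differ in how they were measured. Both channels were above background on both arrays for 47 of the 243 and for 88 of the 107, so most of the former lacked a measured level in 1 channel on at least 1 array. Of the 243 genes, 62 were above background on all 6 other arrays, and of the 107 genes, 47 were. With normexp and loess, which draws dim ratios toward 0, 15 genes were above 1 and 14 below -1 on both arrays.

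**Figure D1:**
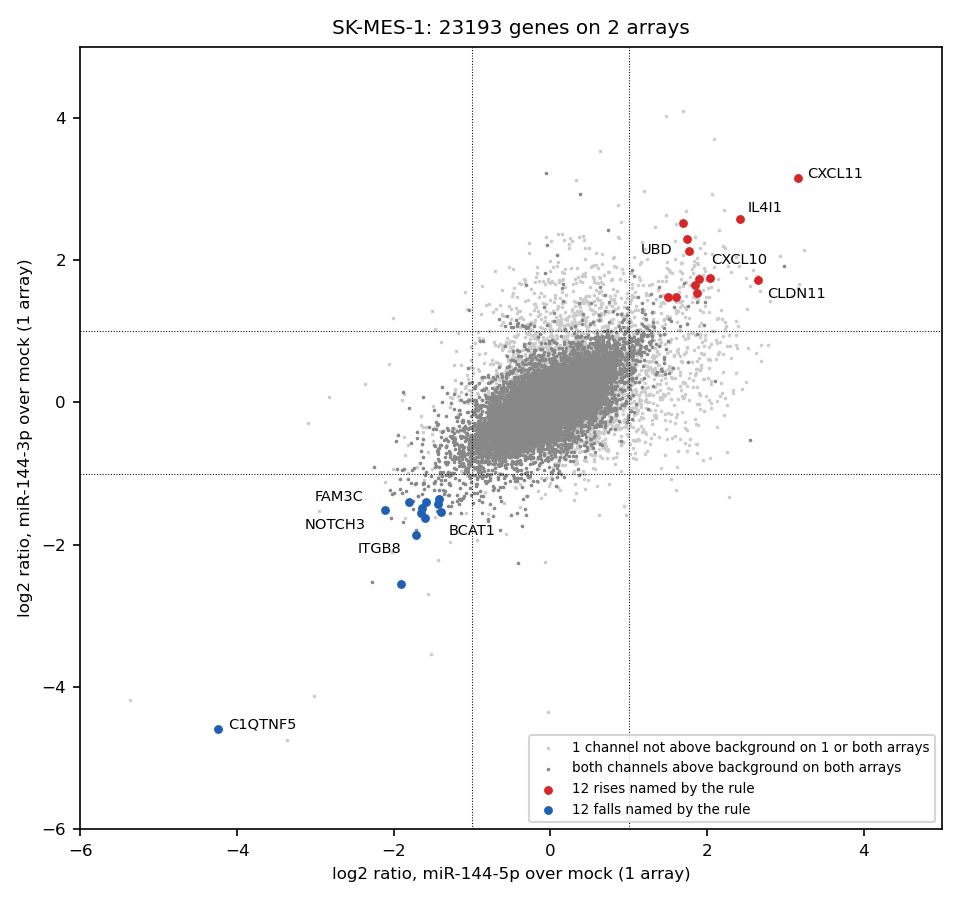
Log2 ratio of transfected over mock for the 23193 genes tested, with miR-144-5p on the horizontal axis and miR-144-3p on the vertical axis, 1 array each. Dark grey points had both channels above background on both arrays, pale points did not, dotted lines lie at -1 and 1, and the 12 rises and 12 falls named by the rule are coloured. CXCL11 lies farthest out among the coloured rises at 3.16 and 3.15, and C1QTNF5 among the coloured falls at -4.24 and -4.59.

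Among genes with a RefSeq symbol and both channels above background on both arrays, CXCL11 had the highest ratio on the weaker array. CXCL11, a chemokine that draws T cells and is induced by interferon, was measured at intensities of 32.6 and 31.0 in mock cells and 188.3 and 185.7 in cells with miR-144-5p and miR-144-3p. Its log2 ratio was 3.16 and 3.15, and on the other 6 arrays it ranged from -0.79 over a median of 0 to 0.92. Both SK-MES-1 values lie far above the others, but the probe was above background on only 1 of the other 6 arrays. The difference of 3.20 ± 0.401 (SE) between the SK-MES-1 arrays and the other 6 had an adjusted p of 0.0304 by limma. The call held in 2 of the 8 fits that left out 1 array each and not with each other line counted once, and over all alternatives the adjusted p reached 0.276. The mean ratio of CXCL11 was 1.34 with normexp and loess. The probe lies on chromosome 4 of hg19 from 76955615 to 76955674.

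CXCL10, which binds the same receptor, had ratios of 2.04 and 1.75, from intensities of 36.5 and 34.3 in mock cells to 115.2 and 90.1 in transfectants. The other 6 arrays gave -1.504 to 1.237 for CXCL10, and none of them had it above background in either channel. The mean ratio of CXCL10 was 0.71 with normexp and loess in place of 1.89. IL4I1, a secreted amino acid oxidase of activated immune cells, had ratios of 2.42 and 2.58, against -0.40 to 0.86 with a median of 0.51 elsewhere. Its intensity went from 53.4 and 55.9 in mock cells to 293.7 and 387 in transfectants, and all 6 other arrays measured it. Its mean ratio was 1.62 with normexp and loess in place of 2.50. The difference of 2.12 ± 0.345 (SE) had an adjusted p of 0.0864 by limma and did not pass.

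UBD, a ubiquitin-like protein induced by interferon gamma and TNF, had ratios of 1.77 and 2.14, and GBP5, an interferon-induced GTPase, had 1.90 and 1.74. Elsewhere UBD ranged from -0.22 to 0.67 and GBP5 from -2.18 to 0.98. Neither range reaches the SK-MES-1 values. The acute phase gene SAA2 had ratios of 1.74 and 2.30 and lay at 0 to 0.81 on the other arrays, of which 2 had it above background. The mean ratios with normexp and loess were 0.46 for SAA2, 0.49 for GBP5 and 1.33 for UBD.

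Other rises named by the rule were measured in the same way. CLDN11, a tight junction protein, had ratios of 2.65 and 1.73 and reached 1.82 on the array with the highest value among the other 6, so the groups overlapped. IL7R, a cytokine receptor, had 1.61 and 1.48 and reached 1.76 elsewhere, overlapping as well. RIT1, a small GTPase, had 1.84 and 1.66 against at most 0.81. MPP4 had 1.69 and 2.52 and overlapped with the other arrays, where it reached 2.12. The non-coding LINC01540, named GAPLINC in RefSeq, had 1.87 and 1.54, while all 6 other arrays lay between -0.71 and -0.06. Under normexp and loess the mean ratio was 0.36 for MPP4, 0.47 for IL7R, 0.81 for LINC01540 and 1.09 for RIT1, while CLDN11 kept 2.01.

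The list of 45 interferon-stimulated genes, all tested, describes the antiviral programme more widely. Its median log2 ratio was 0.377 with miR-144-5p and 0.348 with miR-144-3p, against 0.0318 and 0.0167 over all genes tested. On the other 6 arrays the median of the list lay between -0.533 and 0. The ratio was above 0 on both SK-MES-1 arrays for 36 of the 45 genes and below 0 on both for 3, against 39.2% and 33.3% of all genes tested. It was above 1 on both for 4 genes, BST2, EPSTI1, IFI6 and RSAD2, which is 4 of 45 against 1.05% of all genes, and below -1 for 0. The 4 became 1 of 45 with normexp and loess, and with both channels required above background 2 of 44 were. Both SK-MES-1 arrays were higher than every other array for 21 of the 45 (46.7%), against 6.22% of all genes tested, and lower than every other array for 0. The list was chosen with results of these arrays known, so its direction is a description and carries no p.

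IFI6, a small mitochondrial and endoplasmic reticulum protein with antiviral activity, is the brightest of the 4. Its uncorrected intensity was 828.5 and 821.4 in mock cells and 3350 and 3841 in transfectants. The log2 ratios after correction were 1.30 and 1.39. On the other 6 arrays the ratio lay between -0.53 and 0.18 with a median of -0.29. All 6 of these arrays measured it, and the groups are apart by more than 1 on the log2 scale. The difference of 1.57 ± 0.217 (SE) had an adjusted p of 0.0451 by limma, and the call was lost on leaving out any 1 of the 8 arrays, with adjusted p from 0.0531 to 0.304 in those fits. With normexp and loess the mean ratio was 1.32.

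BST2, which tethers budding virus particles to the cell surface, had ratios of 1.65 and 1.84, against -2.30 to 0.07 elsewhere. Its mock signal, 28.7 and 25.7, was above background on 1 of the 2 arrays, its probe holds a run of 4 G, a second probe of the gene gave a mean of 0.89, and with normexp and loess the mean was 0.34. EPSTI1 had 1.44 and 1.42, but its mock channel was not above background on either array, so that the transfected level was at least 1.14-fold higher. RSAD2, an antiviral enzyme that makes a chain-terminating nucleotide, had 1.31 and 1.08 and overlapped with the other arrays, which ran from -2.27 to 1.78. Its mean with normexp and loess was 0.43, and that of EPSTI1 was 0.21.

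Further members had smaller ratios on both arrays. MX1, a dynamin-like GTPase against influenza virus, had 1.07 and 0.70. OAS2, which makes the activator of RNase L, had 0.71 and 0.63, and the RNA sensors DDX58 and IFIH1 had 0.67 and 0.56, and 0.60 and 0.50. All 4 genes lay above every other array. IFIT1, often among the most strongly induced genes of this programme, had 0.11 and 0.04 and ISG15 had 0.36 and 0.04. SAMD9, IFI35 and PARP14 were below 0 on both arrays.

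**Figure D2:**
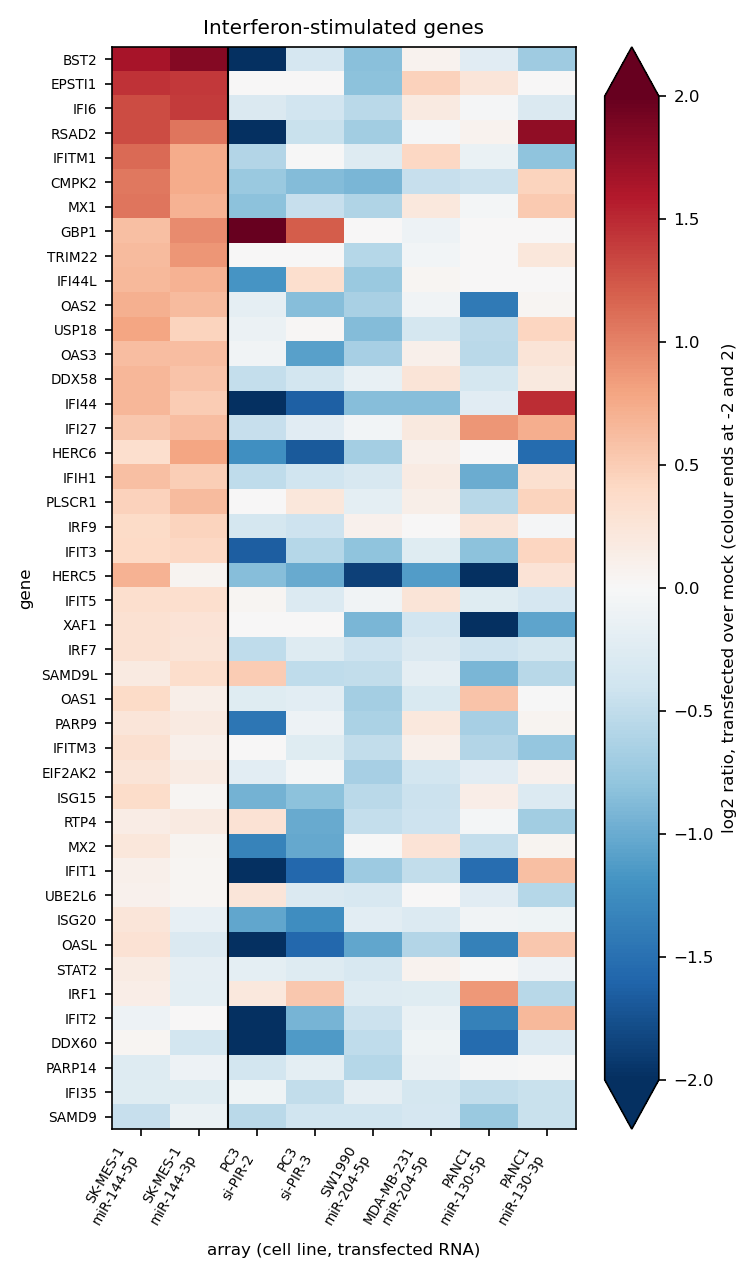
Log2 ratio of transfected over mock for 44 of the 45 interferon-stimulated genes (rows, by mean ratio in SK-MES-1) on the 8 arrays (columns), with colours ending at -2 and 2 and the 2 SK-MES-1 arrays left of the black line. White includes ratios listed at 0 where neither channel was above background, and such spots can also have other ratios and be coloured. The SK-MES-1 columns are above 0 together for 35 of the 44 genes, and the other 6 columns have list medians from -0.533, in SW1990, to 0.

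The start regions of these genes were searched for 3 short motifs on both strands, in 300 bases from 250 before to 50 after the RefSeq start, on GRCh38.p14. The interferon response element, searched as GAAA, 2 bases of any kind and GAAA, was in 24 of the 37 promoters of the list that the table holds (64.9%) and in 3.06% of the 12606 promoters of genes tested. It was in 10 of 109 promoters of the genes above 1 on both arrays (9.17%) and in 1 of 53 of the genes below -1 (1.89%). The stretches around it in genes with a high ratio are shown, upstream of the start and on the strand of the gene, with the matches in capitals.
CXCL10, chr4:76023689-76023738, minus strand: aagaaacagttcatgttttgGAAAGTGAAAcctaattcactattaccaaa
IFI6, chr1:27672256-27672368, minus strand: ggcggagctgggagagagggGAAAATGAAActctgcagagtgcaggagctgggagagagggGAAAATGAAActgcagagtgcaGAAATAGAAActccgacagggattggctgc
BST2, chr19:17405725-17405780, minus strand: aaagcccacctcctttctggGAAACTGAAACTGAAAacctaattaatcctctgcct
EPSTI1, chr13:42992262-42992311, minus strand: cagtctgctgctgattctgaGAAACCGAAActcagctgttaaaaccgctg
IFI6 holds 3 matches within this stretch, and the 2 matches of BST2 overlap. CXCL11, UBD, IL4I1 and RSAD2 have no match of these letters in the window. A match is a description of the sequence and was not tested as a binding site. The share of the list follows from its make-up of known interferon-stimulated genes and is not a result of these arrays.

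NF-kB targets and cytokines were higher as well, but less apart from the other arrays. Of 30 genes, 26 were tested, and the median ratio was 0.658 with miR-144-5p and 0.675 with miR-144-3p. The other 6 arrays had medians from -0.156 to 0.458. The ratio was above 1 on both SK-MES-1 arrays for 7 of the 26 (VCAM1, BIRC3, CXCL1, CCL2, CXCL2, TNFAIP3 and CSF2), against 1.05% of all genes, and below -1 for 0. Only 2 of the 26 (7.69%) lay above all 6 other arrays, near the 6.22% of all genes tested. Under normexp and loess, 3 of the 26 were above 1 on both arrays and the median of the mean ratios was 0.381 in place of 0.703.

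BIRC3, an inhibitor of apoptosis and a classical NF-kB target, went from intensities of 568.1 and 523 in mock cells to 2415 and 2874 in transfectants. Its ratios were 1.38 and 1.63, and the highest of the other arrays, PC3 with si-PIR-2, was at 2.78. CCL2, which draws monocytes, had 1.12 and 1.49 and was above 0 on all 6 other arrays, at 0.51 to 1.61. The neutrophil chemokines CXCL1 and CXCL2 had 1.04 and 1.87, and 1.29 and 1.27, and reached 1.26 and 3.24 elsewhere. TNFAIP3 and NFKBIA, which restrain NF-kB, had 1.12 and 1.01, and 1.11 and 0.97, and the growth factor CSF2 had 1.11 and 1.02. VCAM1 had 1.19 and 2.97 with a mock channel that was not above background, at least 1.13-fold higher. IL1B went the other way, with -1.79 and -0.57. For BIRC3, CCL2, CXCL2, TNFAIP3, NFKBIA and CSF2, the SK-MES-1 values lay within the range of the other arrays.

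The NF-kB motif, searched as GGGA, 1 base of any kind and TTTCC on both strands, was in 9 of 21 promoters of this list (42.9%), against 0.555% of the promoters of genes tested, and in 5 of 109 of the genes above 1 on both arrays (4.59%). The upstream stretches of 4 of its members are shown in the same way.
CXCL1, chr4:73869294-73869343, plus strand: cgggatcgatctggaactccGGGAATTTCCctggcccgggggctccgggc
CXCL2, chr4:74099244-74099293, minus strand: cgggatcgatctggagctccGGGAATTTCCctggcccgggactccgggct
NFKBIA, chr14:35404801-35404850, minus strand: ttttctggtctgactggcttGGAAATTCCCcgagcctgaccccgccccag
TNFAIP3, chr6:137867172-137867221, plus strand: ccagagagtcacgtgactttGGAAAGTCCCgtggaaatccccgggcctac
CXCL1 and CXCL2 are close paralogs, so that their probes may share signal, and BIRC3 has no match in its window. The share of this list, too, follows from its make-up of known NF-kB targets and not from the ratios.

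The named falls are given next, genes with both channels above background first. ITGB8, an integrin subunit that releases active TGF-beta, went from 133 and 129.2 in mock cells to 72 and 68.3 in transfectants. Its ratios were -1.71 and -1.87, against -1.16 to 0.58 with a median of -0.36 elsewhere. NOTCH3, a receptor of the Notch pathway, had -1.64 and -1.48 against -0.39 to 0.83, from 444.9 and 459.3 in mock cells to 235.7 and 285.7. Both genes lay below all 6 other arrays. Mean ratios under normexp and loess were -1.01 for ITGB8 and -1.32 for NOTCH3. Their differences from the other 6, -1.54 ± 0.454 and -1.68 ± 0.338 (SE), had adjusted p of 0.372 and 0.158 by limma and did not pass.

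FAM3C, a secreted factor linked to the epithelial-mesenchymal transition, had -2.11 and -1.51. PC3 with si-PIR-3 was at -1.66 for FAM3C, while the other 5 arrays were above 0. ANG, a secreted ribonuclease, had -1.59 and -1.40 and was below 0 on all 8 arrays, with -1.03 as the lowest value elsewhere. STK32A, a kinase, had -1.81 and -1.40 from a dim mock signal of 34.7 and 32.2, WDR86 had -1.65 and -1.55 and overlapped with the other arrays, which reached -1.72, and GAS5-AS1 had -1.42 and -1.35. LOC100130417, at -1.91 and -2.55, had 3 further probes with means from -1.48 to -0.76. Under normexp and loess the means were -0.23 for STK32A, -0.31 for GAS5-AS1, -0.82 for LOC100130417 and for ANG, -0.98 for WDR86 and -1.62 for FAM3C.

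C1QTNF5 had the lowest ratios of the 12 named falls, -4.24 and -4.59, but was at -4.76 to -2.57 on the other 6 arrays too. FPR1, at -1.43 and -1.42, was also below 0 on all of them. The probes of both contain a run of 4 G, as do those of 12.8% of all genes tested, 31 of the 107 genes below -1 and 19 of the 243 above 1. ACTL8, SMAD1-AS1 and LINC01257, whose transfected channel was not above background on either SK-MES-1 array, share this run and were low on all 8 arrays as well, ACTL8 at -5.36 and -4.19 in SK-MES-1 and -5.29 to -3.83 elsewhere. On these probes, the mock levels were at least 1.96-fold, 1.32-fold and 1.13-fold higher. A second ACTL8 probe, without the run, went the other way with a mean of 0.85. The part of the run in these values was not tested. OSR1, a transcription factor with the same kind of bound but no such run, had -1.45 and -1.35 and was at least 1.07-fold lower in transfectants.

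**Figure D3:**
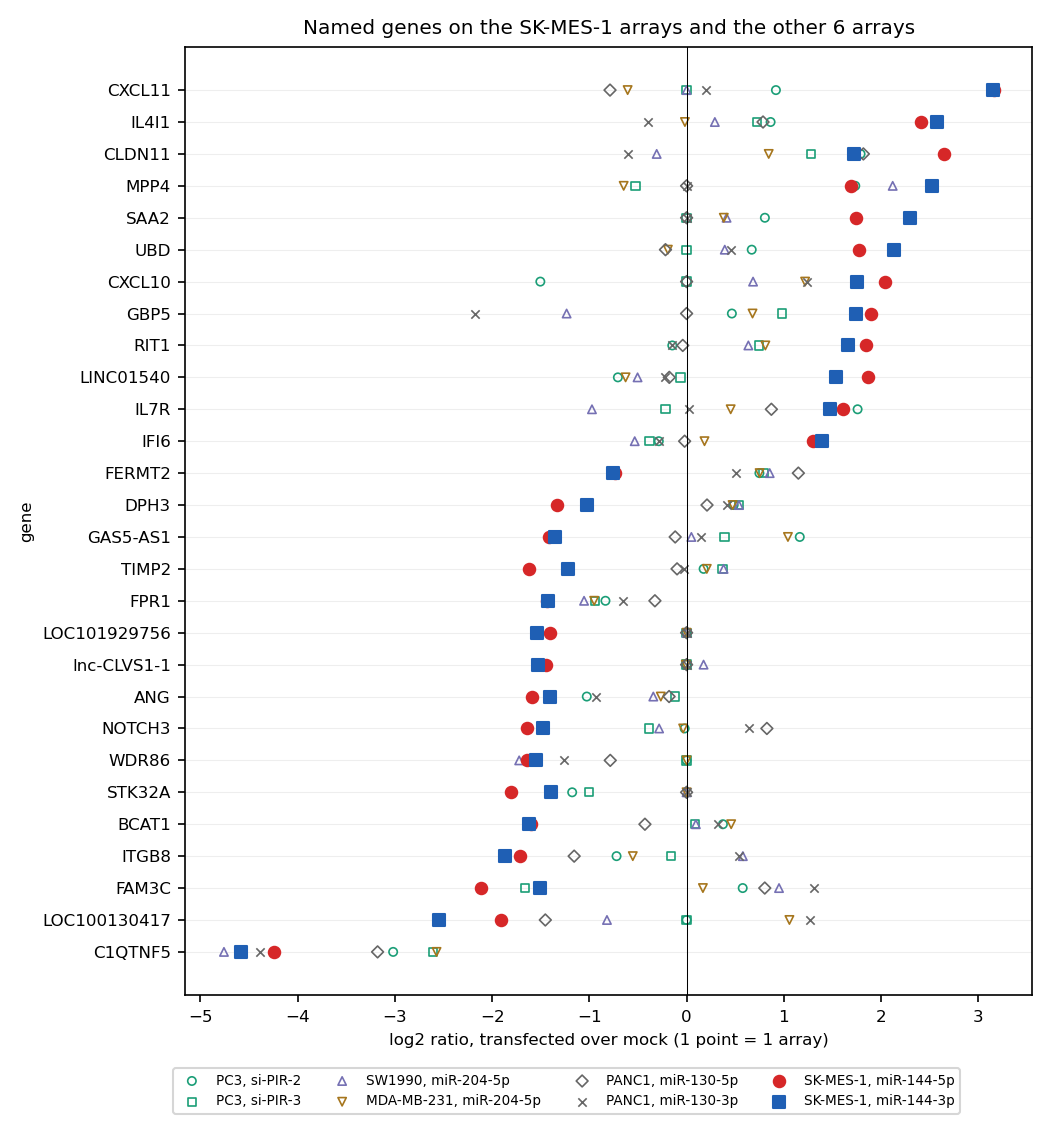
Log2 ratio of transfected over mock (horizontal axis) for the named rises and falls and the genes called against the other 6 arrays (vertical axis, by mean ratio in SK-MES-1), 1 point an array, filled for SK-MES-1 and open or crossed for the other lines. The SK-MES-1 points of IFI6, LINC01540, DPH3, TIMP2, BCAT1 and FERMT2 lie apart from all others, and those of C1QTNF5 lie among them. Points at exactly 0 include ratios of spots where neither channel was above background, and such spots can also lie away from 0.

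Which of these values are particular to the SK-MES-1 arrays was asked by testing the 2 arrays against the other 6. limma called 16 genes higher (0.069% of those tested) and 11 lower (0.0474%) at an adjusted p under 0.05, and 892 (3.85%) and 981 (4.23%) had an unadjusted p under 0.05. Of the 27 genes, 8 were above background in at least 1 channel on all 6 other arrays. These are LINC01540 and IFI6, higher, and BCAT1, DPH3, TIMP2, FERMT2, DPH3P1 and DCAF7, lower; the last 2 were named after their values were seen. For the other 19 genes, neither channel was above background on 1 or more of the other 6 arrays. Some ratios of such spots were listed at 0, which narrows the spread among the other 6 arrays, and some, as for CXCL11, were not. With only the 18609 genes tested that were above background on all 8 arrays, 1 gene was called higher and 1 lower. With each other cell line counted once, limma called 0 genes, and 1045 higher and 1058 lower genes then had an unadjusted p under 0.05. SK-MES-1 was the only line with miR-144, so the cell line and the transfected RNA cannot be told apart in this comparison.

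TIMP2, which inhibits matrix metalloproteinases, was the brightest of the genes named here as lower than elsewhere. Its uncorrected intensity was 10780 and 9576 in mock cells and 6719 and 8058 in transfectants. The log2 ratios after correction were -1.62 and -1.22. The other 6 arrays lay between -0.10 and 0.38, and the difference of -1.59 ± 0.204 (SE) had an adjusted p of 0.0338. The call held in 1 of the 8 fits that left out 1 array each, the one without miR-130-5p in PANC1.

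BCAT1, which starts the breakdown of branched-chain amino acids, had -1.60 and -1.62, against -0.43 to 0.46 elsewhere. The difference was -1.76 ± 0.245 (SE) with an adjusted p of 0.0466 by limma. Its mock intensities of 66.2 and 65.6 were low, and with normexp and loess the difference was -0.69 with an adjusted p of 0.249. FERMT2, a kindlin that activates integrins, had -0.74 and -0.76, while all 6 other arrays were above 0, at 0.51 to 1.15 with a median of 0.77. The difference was -1.55 ± 0.193 (SE), with an adjusted p of 0.0304. A second FERMT2 probe had a mean of -0.37 in SK-MES-1.

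DPH3, which takes part in the diphthamide modification of elongation factor 2, had -1.33 and -1.02, against 0.21 to 0.54 elsewhere. The difference was -1.62 ± 0.176 (SE), with an adjusted p of 0.0161 by limma, and a second probe had a mean of -0.72. DPH3P1, a near-identical copy, had -1.33 and -0.87, and signal may be shared between them. DCAF7, a scaffold of ubiquitin ligases and kinases, had -1.07 and -0.95 against 0.09 to 0.52, with an adjusted p of 0.0349. LINC01540 gave a difference of 2.09 ± 0.227 (SE), with an adjusted p of 0.0161, and its 2 further probes had means of 2.02 and 2.96. Among genes with both channels above background in SK-MES-1, the uncharacterised transcript lnc-CLVS1-1, with ratios of -1.45 and -1.53, was also called, but 1 of the other 6 arrays had it above background.

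Leaving out single arrays changed most of these calls. Without MDA-MB-231 with miR-204-5p, 0 genes were called lower and 6 higher. Without the miR-144-5p array, 4 genes were called lower and 18 higher, and without the miR-144-3p array 1 and 13. Over the 8 fits, DPH3 kept its call in 5 and LINC01540 in 5, CXCL11 and FERMT2 in 2 each, BCAT1 in 1 and IFI6 in 0.

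The median of the TGF-beta target genes was below that on each of the other arrays. All 25 genes of the list were tested, and the median ratio was -0.306 with miR-144-5p and -0.198 with miR-144-3p. The 6 other arrays had medians of 0.0645 to 0.480, all above 0. The ratio was below -1 on both SK-MES-1 arrays for 1 gene, FN1, and above 1 for 0, and 8 of the 25 (32%) lay below every other array, against 6.54% of all genes tested, and 0 above. The 8 were FN1, THBS1, ID2, TIMP3, TGFB1, TGFB2, TAGLN and SMAD7.

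FN1, the matrix protein fibronectin, had ratios of -1.29 and -1.30, from 126.3 and 130.3 in mock cells to 88.4 and 99.2. Elsewhere it lay between -1.02 and 0.53, and 4 of the 6 arrays measured it. THBS1, a matrix protein that activates latent TGF-beta, had -0.97 and -0.82 against -0.48 to 1.23. The ligands TGFB1 and TGFB2 had -0.39 and -0.53, and -0.31 and -0.44. ID1, ID2 and ID3, inhibitors of differentiation factors and targets of BMP signalling, had means of -0.84, -0.88 and -0.72, but ID1 and ID3 were within the range of the other arrays. CTGF, a matricellular protein, had 0.76 and 0.51. With normexp and loess the median of the list was -0.0718, and 9 members lay below all other arrays.

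Genes of DNA synthesis had small positive ratios. The 36 DNA replication genes had medians of 0.277 with miR-144-5p and 0.194 with miR-144-3p, while the other 6 arrays ran from -0.715 in PANC1 with miR-130-5p to 0.117. The ratio was above 0 on both SK-MES-1 arrays for 27 of the 36, against 39.2% of all genes tested, and past 1 in either direction for 0. Above all 6 other arrays lay 11 of the 36 (30.6%), against 6.22% of all genes, and below them 0. RRM2, the small subunit of ribonucleotide reductase, had 0.58 and 0.48, and UHRF1, which maintains DNA methylation, had 0.58 and 0.40 against -0.93 to -0.13. MCM7 and PRIM1, at -0.48 and -0.39 and at -0.44 and -0.32, went the other way. The E2F motif, searched as TTTNGCGC on both strands, was in 13 of 32 promoters of this list (40.6%) and in 2.82% of those of genes tested. That share belongs to the list as chosen and does not depend on the ratios.

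Histone genes that are transcribed in S phase had small positive ratios too. Of 43 tested, 34 were above 0 on both arrays, against 39.2% of all genes, and 12 (27.9%) above all others, against 6.22%, with medians of 0.339 and 0.119. HIST1H1D, a linker histone, was the highest at 0.94 and 0.91, against -0.73 to 0.06 elsewhere, and its difference of 1.44 had an adjusted p of 0.0879 by limma. Histone genes are close copies of each other, so their probes are not independent. Genes of mitosis had medians of -0.146 and 0.0045 over 38 genes, of which 2 (5.26%) lay above all others, against 6.22% of all genes, and KIF11, the spindle motor, had -0.78 and -0.49.

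Metabolic and stress lists were mostly below 0 by little. The 25 cholesterol synthesis genes had a median of -0.143, 19 of them being below 0 on both arrays, against 33.3% of all genes tested, and 5 (20%) lay below all others, against 6.54%, with CYP51A1 at -0.73 and -0.34. The 22 genes of the unfolded protein response had a median of -0.264, with 16 below 0 on both arrays and 4 (18.2%) below all others, against the same 33.3% and 6.54%. The 4 became 2 of 22 with normexp and loess. DNAJB9, a chaperone of that response, had -0.63 and -0.34, while the other 6 arrays lay at 0.48 to 1.08. None of the genes of either list was past 1 in either direction.

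NRF2 targets were mostly below 0, with a few members far apart in both directions. Of 30 tested, 20 were below 0 on both arrays and 3 above 0, against 33.3% and 39.2% of all genes, and the median was -0.164. Below -1 on both arrays were 2 and above 1 was 1, against 0.461% and 1.05% of all genes. The aldo-keto reductases AKR1B10 and AKR1C1 had -1.78 and -1.14, and -1.63 and -1.13, from mock intensities of 2714 and 2516, and 8805 and 8223, and AKR1C3 had -1.20 and -0.94. HMOX1, which degrades heme, had 1.45 and 1.05 on a probe that holds a run of 4 G, and without such probes 0 of the list were above 1. On the other 6 arrays AKR1C1 ran from -2.29 to 0.89, AKR1C3 from -1.16 to 2.03 and HMOX1 from -1.25 to 1.97, so these genes overlapped with them. AKR1B10, at -0.96 to 1.69 elsewhere, lay below all others in SK-MES-1. The AKR1C genes are close paralogs. NQO1, a standard NRF2 target, had -0.52 and -0.18, and PIR, the gene targeted in the PC3 arrays, had -0.14 and 0.01.

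YAP and TEAD targets were mixed. CYR61, a matricellular protein, went from uncorrected intensities of 1845 and 1598 to 12700 and 6214, with ratios of 1.96 and 1.08, and NUAK2 had 1.66 and 1.08. In PC3 with si-PIR-2, CYR61 was at 1.87 and NUAK2 at 1.83, so both overlapped with the other arrays. NT5E had -1.44 and -0.69, but a second probe of it had a mean of 0.19. Of the 24 tested, 5 (20.8%) lay below all others, against 6.54% of all genes. In the matrix protease list, MMP9 had 1.58 and 1.34 from mock intensities of 29.7 and 29.9, and its mean was 0.36 with normexp and loess. In the integrin and laminin list, 17 of 28 genes were below 0 on both arrays, against 33.3% of all genes tested.

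**Figure D4:**
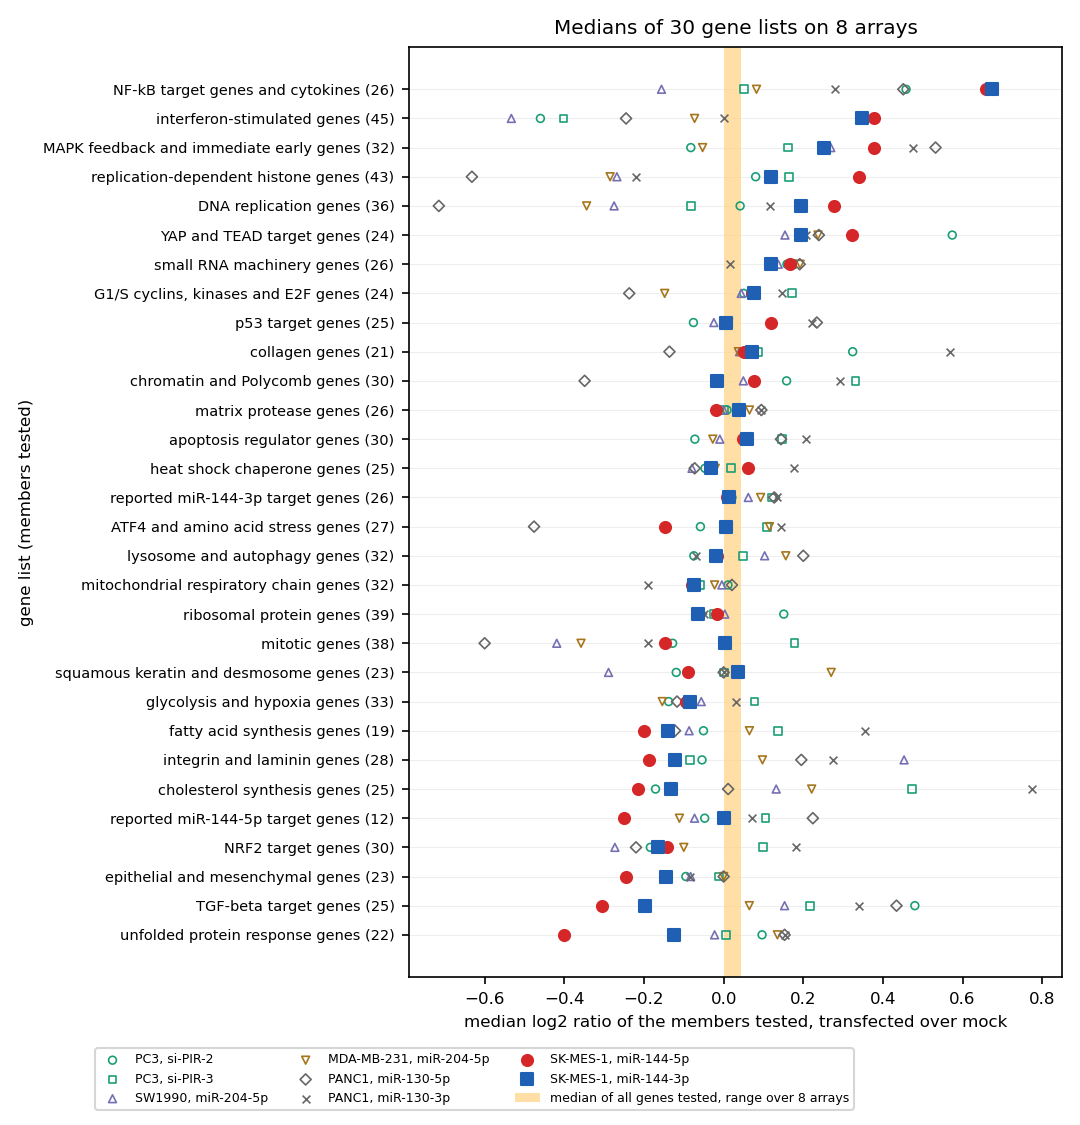
Median log2 ratio (horizontal axis) of the tested members of 30 gene lists (vertical axis, number of members tested in brackets) on the 8 arrays, filled for SK-MES-1 and open or crossed for the other lines, with the range of the median of all genes tested in orange. The 2 filled points of the interferon-stimulated, NF-kB and DNA replication lists lie to the right of the other points in the same row. Those of the TGF-beta, unfolded protein response, fatty acid synthesis, integrin and laminin, and epithelial and mesenchymal lists lie to the left, most of them by little. Lists share some genes, and no list carries a test.

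Genes reported as targets of either strand were counted from a list for each strand. Of 26 tested genes of the miR-144-3p list, 7 were below 0 on both arrays and 9 above, against 33.3% and 39.2% of all genes tested. The median mean ratio was -0.0231 against 0.028 over all genes tested. On both arrays, 0 were below -1 and 1 was above 1, against 0.461% and 1.05% of all genes. The 1 was CXCR4, a chemokine receptor, at 1.60 and 1.26, whose mock channel was not above background, so that it was at least 1.17-fold higher. ATXN1 had -0.61 and -0.79, below all other arrays, and EZH2, the histone methyltransferase of Polycomb, had 0.52 and 0.44. Of 12 tested genes of the miR-144-5p list, 6 were below 0 and 3 above 0 on both arrays, against the same 33.3% and 39.2%. Their median was -0.151, and -0.25 on the miR-144-5p array. NCS1, a neuronal calcium sensor, was the 1 gene below -1, at -1.04 and -1.04 against -0.34 to 0.92 elsewhere, from mock intensities of 63.3 and 53.6, and its mean was -0.38 with normexp and loess. Sites of the seeds in transcripts were not searched here.

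Among the genes that were above background in transfectants but not in mock cells, HSPB3, TMEM255A and MOB3B had the highest bounds beside CXCR4. HSPB3, a small heat shock protein of muscle, had ratios of 3.24 and 2.14, but the bound was at least 1.22-fold, and its probe holds the run of 4 G. TMEM255A had 2.58 and 1.86 and was at least 1.20-fold higher, and MOB3B had 1.65 and 1.42 and was at least 1.19-fold higher. A fold of this kind sets the mean normalized transfected signal over the gene's own mock signal. Where the lowest signal above background was higher than that mock signal, it was used in its place. The signals hold the normexp offset of 50, so the fold is close to 1 for dim spots.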

How the data were processed

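The authors deposited the scanner output of 8 Agilent 2-colour arrays, made with Feature Extraction 11.5.1.1. It gives linear intensity values for both dyes, flags, and a log10 ratio, Cy5 to Cy3, taken after the software's own background and dye corrections. Those log10 ratios also fill the deposited value table (largest difference 0). All 8 arrays shared 1 slide and 1 scan. Per the labels, samples were grouped by cell line.

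Ratios were turned to log2. Control spots and outlier spots (149 and 157 on the SK-MES-1 arrays) were left out, spots of a probe were averaged, and the brightest passing probe stood for a gene. Names are those of the array, 16399 of the tested genes having a RefSeq name, and positions are the array's on hg19. limma 3.58.1 in R 4.3.3 (lmFit, eBayes, Benjamini-Hochberg) tested the mean against 0 and SK-MES-1 against the other 6 arrays. In both, the mock cells enter only as the denominator of each ratio, so their own spread is not estimated. Bounds used normexp (offset 50), loess and Aquantile. The steps were tested on simulated data.

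The members and lists were chosen with earlier results of these data known. Genes named were the 12 highest and 12 lowest by the weaker array with both channels above background and a RefSeq symbol, up to 4 a direction by bound, up to 5 a direction among those called against the other 6, and the 4 members of each list with the largest mean ratio in size. Further list members were named after their values were seen, and some genes that the rule names are not reported here. Precision is limited by the number of arrays. Alternatives were normexp (offset 50) with loess, median centring, no filter, both channels, the mean over probes, no probes with a run of 4 G, the value table, pooled fits and single arrays left out. The filter on all 8 arrays was added after the data were seen. Figures used matplotlib 3.10.9.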

Additional observations from a re-analysis of the deposited data

Results flagged for a closer look

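The SK-MES-1 arrays differed from the other 6 arrays, by a test of the difference itself in limma, for 16 genes that were higher and 11 that were lower. Counting each other cell line once left 0 genes called, and the filter on all 8 arrays left 1 higher and 1 lower. Among the named genes, the difference on the log2 scale was 3.20 for CXCL11, 2.09 for LINC01540, 2.22 for TMEM255A and 1.57 for IFI6. It was -1.76 for BCAT1, -1.62 for DPH3, -1.59 for TIMP2, -1.55 for FERMT2, -1.52 for lnc-CLVS1-1 and -1.47 for LOC101929756. For TMEM255A and LOC101929756, 0 of the other 6 arrays had either channel above background and all their ratios were listed at 0, and for CXCL11 and lnc-CLVS1-1 1 of the 6 had. No group had the 4 arrays that a search for single outlying arrays needs.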

How the results depend on the processing

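Median centring, the mean over probes, leaving out probes with a run of 4 G and the value table kept all 6 counts within 1.5 times. With normexp and loess, the mean against 0 gave 3140 genes above and 2373 below, 15 genes were above 1 and 14 below -1 on both arrays, and 35 were higher and 71 lower than on the other 6 arrays. With both channels above background these counts were 722 and 960, 47 (the 88 below -1 stayed within 1.5 times), and 2 and 7. Without a filter, 402 genes were above 1 and 390 below -1, and 76 were higher and 109 lower than elsewhere. With the filter on all 8 arrays, 62 and 47 genes were past 1, and 1 and 1 were called. At a threshold of 0.5, 1184 and 857 genes were past it on both arrays, and at 1.5, 79 and 19. On a single SK-MES-1 array, 691 to 768 genes were above 1 and 238 to 429 below -1. With 1 array left out, 6 to 18 genes were higher and 0 to 14 lower than elsewhere, and the mean against 0 gave 0 to 0; the lone SK-MES-1 array was assumed to vary like the other groups. With each other line counted once, 0 and 0 were called. Of the named genes' means, 149 of 149 kept their sign with normexp and loess and 64 moved by over 1.5 times. ACTL8 turned to 0.85 on its probe without the run, and EGR1, with a mean of 1.01, to -0.53 without the miR-144-5p array and 2.55 without the miR-144-3p array. The causes were not tested. No paired analysis was possible because the replicate numbers are in accession order and name different transfected RNAs.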
